A study of Homo sapiens with 4 samples.

Results

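RUNX2, KLF2, CDKN2B and IGFBP3 are 4 genes that are widely described as silenced by EZH2 in human cancer cells, and they were followed here across all libraries of an EZH2 knockdown series. They were chosen by name as rows of the deposited gene table, and all 4 were among its 7640 listed genes. All 4 were also among the 6139 genes called measured, which means a mean level of at least 1 FPKM (fragments per kilobase of transcript, relative to all mapped fragments) over the libraries. Messenger RNA was sequenced in HCT116 and RKO, which are human colorectal cancer cell lines. HCT116 NC and RKO NC carried a control short hairpin RNA (shRNA), and HCT116 shEZH2 and RKO shEZH2 carried an shRNA against EZH2. Per the study's methods, the EZH2 hairpins were cloned in the pLKO.1 lentiviral vector and infected cells were selected with puromycin. The methods do not say how the NC cells were made or whether they were selected in the same way. The labels do not say which hairpin was used or whether both lines received the same one. Each group was 1 library, so no difference within a line has a replicate check.

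EZH2 is the catalytic subunit of Polycomb repressive complex 2, which methylates lysine 27 of histone H3 and so keeps many developmental and growth-restraining genes silent, often at CpG-rich promoters. RUNX2 is a transcription factor that directs bone formation, and KLF2 is a zinc finger transcription factor known for quiescence of endothelial cells and T cells. CDKN2B encodes p15, an inhibitor of the kinases CDK4 and CDK6 that is induced by TGF-β. IGFBP3 is a secreted protein that binds insulin-like growth factors and limits their access to the receptor.

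The sequence before each gene start is shown because CpG-rich promoters are where Polycomb repression is mostly described. Each window is the 250 bases upstream of a RefSeq gene start (GRCh38.p14, printed 5′ to 3′ on the gene's strand), with every CpG in capitals. RUNX2 has a pair of such starts, called distal and proximal here by their order along the gene.
RUNX2 distal, chr6:45328080-45328329, plus strand: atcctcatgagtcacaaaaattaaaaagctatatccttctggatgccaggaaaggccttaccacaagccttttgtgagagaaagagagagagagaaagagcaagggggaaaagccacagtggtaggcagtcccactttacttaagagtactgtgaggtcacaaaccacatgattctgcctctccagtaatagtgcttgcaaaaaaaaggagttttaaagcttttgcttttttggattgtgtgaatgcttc
RUNX2 proximal, chr6:45422025-45422274, plus strand: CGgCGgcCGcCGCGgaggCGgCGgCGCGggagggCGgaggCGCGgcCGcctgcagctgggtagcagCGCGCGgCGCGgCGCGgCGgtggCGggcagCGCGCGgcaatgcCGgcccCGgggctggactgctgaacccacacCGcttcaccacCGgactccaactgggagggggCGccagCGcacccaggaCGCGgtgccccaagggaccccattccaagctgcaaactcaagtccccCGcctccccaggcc
KLF2, chr19:16324576-16324825, plus strand: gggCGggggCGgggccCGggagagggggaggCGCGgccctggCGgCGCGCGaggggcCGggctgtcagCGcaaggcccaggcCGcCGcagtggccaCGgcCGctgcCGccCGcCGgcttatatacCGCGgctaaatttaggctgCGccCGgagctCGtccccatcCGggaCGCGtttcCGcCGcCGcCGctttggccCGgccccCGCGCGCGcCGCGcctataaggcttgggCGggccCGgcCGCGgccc
CDKN2B, chr9:22009306-22009555, minus strand: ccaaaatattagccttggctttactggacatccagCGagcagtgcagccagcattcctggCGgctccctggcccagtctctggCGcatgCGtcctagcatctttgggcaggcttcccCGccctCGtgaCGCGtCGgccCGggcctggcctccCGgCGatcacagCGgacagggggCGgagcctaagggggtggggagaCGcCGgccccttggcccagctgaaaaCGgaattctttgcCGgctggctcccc
IGFBP3, chr7:45921273-45921522, minus strand: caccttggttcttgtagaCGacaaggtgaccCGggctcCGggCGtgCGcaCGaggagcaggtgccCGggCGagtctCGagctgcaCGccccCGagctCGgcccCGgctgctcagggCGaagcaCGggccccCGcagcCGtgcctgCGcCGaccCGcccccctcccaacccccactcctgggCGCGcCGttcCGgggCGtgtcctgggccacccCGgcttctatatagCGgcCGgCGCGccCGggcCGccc

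The windows of the 4 genes were not alike. The KLF2 window held 41 CpG at a GC content of 80%, more CpG than 98.3% of the 34943 windows before RefSeq gene starts. The proximal RUNX2 window held 34 CpG (78% GC, above 93.2% of windows) and the IGFBP3 window 32 (76% GC, above 90.5%). The CDKN2B window was nearer the middle, with 18 CpG, 66.4% GC and a rank above 63.3% of windows, against a median of 11 CpG and 58% GC over all windows. The distal RUNX2 window held 0 CpG and had 41.6% GC. On either strand it held 2 copies of ACCACA, a short form of the motif that RUNX proteins bind. At least 2 copies were found in 0.973% of all windows, and 1 or more in 11.0%. The KLF2 window held 2 copies of TATAA on either strand, as 7.76% of windows did. CACCC, a core that Krüppel-like factors bind, was found once in the proximal RUNX2, the CDKN2B and the IGFBP3 windows and in 54.7% of all windows. These matches describe letters in the windows, and no binding was measured. Among measured genes with 30 or more CpG in their richest window, 3.80% were over 1.2-fold higher in both lines. The share was 3.67% with 20 to 29 CpG, 3.99% with 10 to 19 and 6.39% with fewer than 10, and differences between these classes were not tested.

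**Figure D1:**
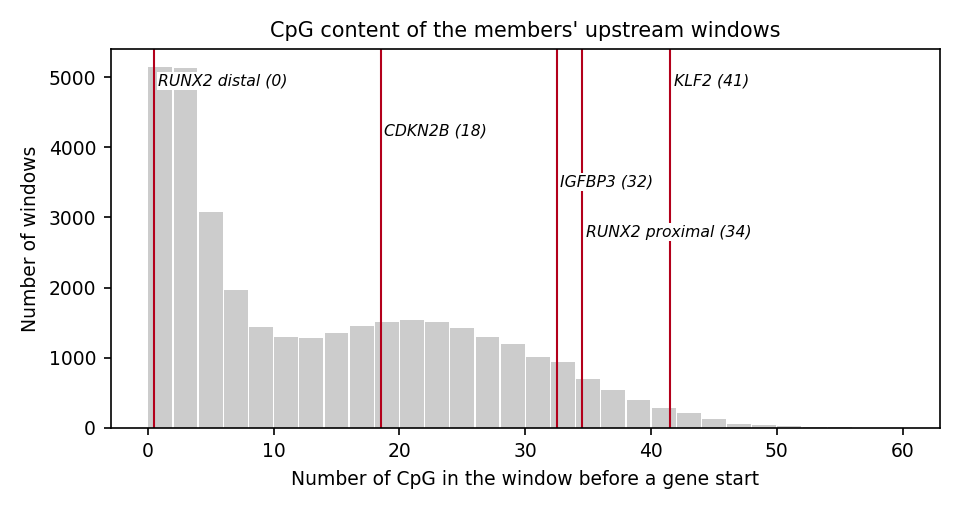
Number of CpG in the 250 bases before each RefSeq gene start (x axis) against the number of windows with that count (y axis, bars for all 34943 windows). Vertical lines mark the windows of the 4 genes, which run from 0 CpG for the distal RUNX2 start to 41 for KLF2.

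The knockdown was checked first. EZH2 was at 31.49 FPKM in HCT116 NC and 12.61 in HCT116 shEZH2, and at 33.61 in RKO NC and 6.61 in RKO shEZH2. Both shEZH2 libraries were below both NC libraries. The ratio of expected counts, knockdown over control after scaling for library size, was 0.449 in HCT116 (95% exact binomial interval 0.409 to 0.492) and 0.227 in RKO (0.202 to 0.253). These intervals, like all those below, cover counting error only.

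The table held 7898152 to 8185776 expected counts per library, which was 41.6% to 48.1% of an estimated 17003147 to 18991801 fragments. It is thus a partial table, and shares over all measured genes below refer to its genes only. Where a list has fewer measured genes than members, many of the missing ones are outside the table. Their level is unknown, not low. The colorectal identity of the lines was checked with markers, of which 9 of 15 epithelial ones were listed and 8 measured. HCT116 NC had EPCAM at 176.54, KRT19 at 567.16 and CDH1 at 25.30 FPKM. In RKO NC these defining epithelial markers were at or near 0, with EPCAM at 0, KRT19 at 0.04 and CDH1 at 0.10 FPKM, while the keratin KRT18 was at 154.04 and the intestinal factor CDX2 at 6.91 FPKM. The summed epithelial level was 2793 and 2682 FPKM in the control and knockdown libraries of HCT116, and 169 and 207 FPKM in those of RKO. The 3 listed mesenchymal markers of 10 summed to 11.8 and 15.5 FPKM in HCT116 and 2.34 and 3.97 in RKO, and of 7 leukocyte markers CD68 and HLA-DRA were listed. CD68 was at 283.57 FPKM in RKO NC and 3.24 in HCT116 NC, and HLA-DRA was at 0 in both RKO libraries. The part of these values in the changes of the 4 genes was not tested.

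RUNX2 (gene ID 860) was at 2.71 FPKM in HCT116 NC, 6.72 in HCT116 shEZH2, 1.95 in RKO NC and 3.94 in RKO shEZH2. Both knockdown libraries were above both controls. The difference of log2(FPKM + 1), knockdown minus control, was 1.06 in HCT116 and 0.74 in RKO. In expected counts the gene went from 247 to 604 in HCT116 and from 195 to 393 in RKO, giving scaled ratios of 2.46 (95% interval 2.12 to 2.87) and 2.04 (1.71 to 2.44). The intervals of the lines overlapped. RUNX2 was the 22nd highest change of the 6139 measured genes in HCT116 and ranked 567 in RKO. In these bulk libraries, more cells that transcribe a gene and more transcript per cell cannot be told apart, for RUNX2 or for any gene that follows.

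KLF2 (gene ID 10365) was the most abundant of the 4 genes by FPKM in every library. It was at 14.79 FPKM in HCT116 NC, 23.82 in HCT116 shEZH2, 14.65 in RKO NC and 40.88 in RKO shEZH2. The control levels were nearly the same, with a scaled count ratio of RKO over HCT116 of 0.991 (95% interval 0.894 to 1.10). The knockdown levels were not, with a ratio of 1.72 (1.60 to 1.85). The log2 change was 0.65 in HCT116 and 1.42 in RKO, ranks 96 and 129 from the top. The scaled count ratio was 1.61 in HCT116 (1.47 to 1.77) and 2.79 in RKO (2.57 to 3.03), and these intervals did not overlap. Without replicates, a difference between lines beyond counting error could not be tested.

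CDKN2B (gene ID 1030) was at 2.15 FPKM in HCT116 NC, 3.10 in HCT116 shEZH2, 2.60 in RKO NC and 8.54 in RKO shEZH2. The RKO knockdown library stood above the other 3, and the HCT116 knockdown library was the next highest. The log2 change was 0.38 in HCT116 (rank 378) and 1.41 in RKO (rank 135). The scaled count ratio was 1.44 in HCT116, and its interval of 1.16 to 1.80 reached below 1.2-fold. In RKO it was 3.28 (2.79 to 3.88), outside the HCT116 interval. Expected counts of CDKN2B were not whole numbers, as those of RUNX2 were not, so the estimator had shared some reads with other genes. CDKN2A is a similar neighbouring gene and CDKN2B-AS1 an antisense RNA over the same locus, so the CDKN2B values are uncertain to that extent.

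IGFBP3 (gene ID 3486) was at 1.64 FPKM in HCT116 NC and 5.01 in HCT116 shEZH2, and was listed at 0 in RKO NC and at 0 in RKO shEZH2. In counts these were 73, 222, 0 and 0. The log2 change in HCT116 was 1.19, the 13th highest of all measured genes and the highest of the 4, and the scaled count ratio was 3.06 (95% interval 2.34 to 4.05). IGFBP3 counts as measured, with a mean of 1.66 FPKM, only through HCT116 and mainly HCT116 shEZH2, so this rank follows partly from the filter. In RKO no ratio can be given, since both libraries are at 0. A count of 0 allows up to 3 counts per library, or 0.0609 FPKM in RKO NC and 0.0614 in RKO shEZH2. With the HCT116 values taken as they stand, IGFBP3 was at least 27.0-fold lower in RKO NC than in HCT116 NC. Likewise, it was at least 81.6-fold lower in RKO shEZH2 than in HCT116 shEZH2. These folds leave out the counting error of the HCT116 counts, so they are not interval bounds. Genes that every cell uses were far from 0 in RKO, such as PPIA at 1650 and 1679 FPKM.

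**Figure D2:**
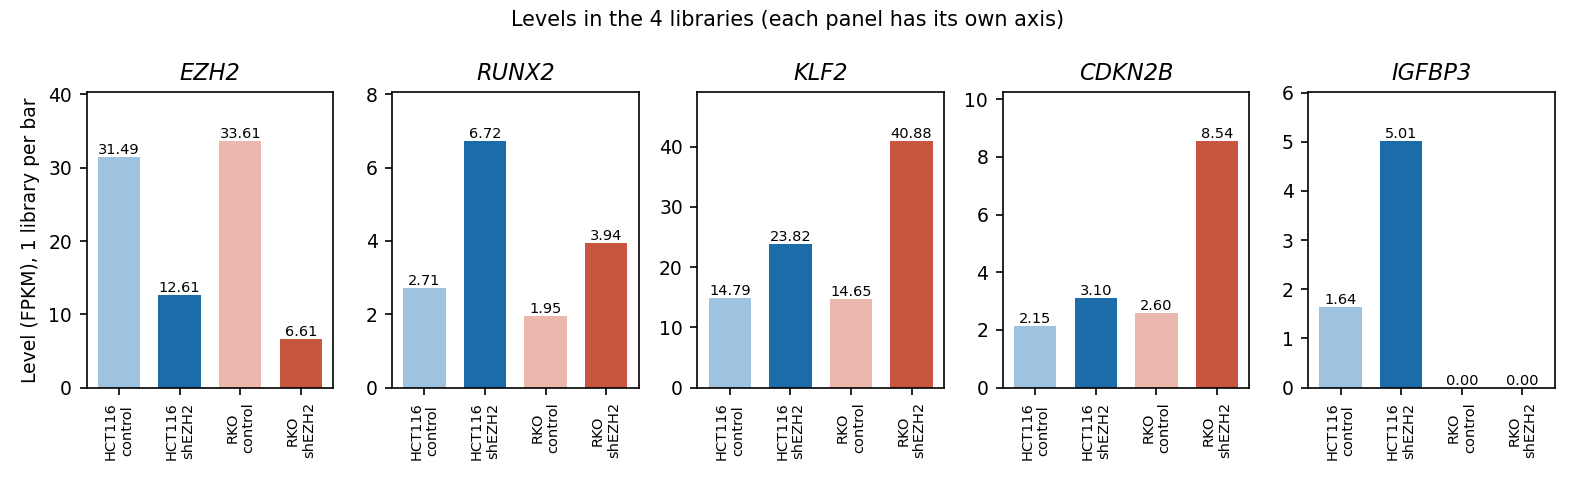
Level in FPKM (y axis, a separate scale from 0 in each panel) of EZH2 and the 4 genes in the 4 libraries (x axis), 1 library per bar and so without error bars. EZH2 is lower in both knockdown libraries, RUNX2, KLF2 and CDKN2B are higher in the knockdown library of each line, and IGFBP3 is at 0 in both RKO libraries.

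The order of the 4 genes by FPKM, a level per transcript length, was KLF2, RUNX2, CDKN2B and IGFBP3 in HCT116 NC. In HCT116 shEZH2 IGFBP3 stood above CDKN2B, and in both RKO libraries CDKN2B stood above RUNX2. Between the control libraries RUNX2 was lower in RKO, with a count ratio of 0.713 (95% interval 0.588 to 0.864), while the CDKN2B ratio of 1.21 (0.971 to 1.52) was within counting error of 1. Between the knockdown libraries the ratio of RKO over HCT116 was 0.590 for RUNX2 (0.519 to 0.671) and 2.75 for CDKN2B (2.35 to 3.24). KLF2 was above 64.3% of measured genes in HCT116 NC and above 85.4% in RKO shEZH2. IGFBP3 went from above 7.61% of them in HCT116 NC to above 30.5% in HCT116 shEZH2.

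The next question was how the 4 genes compared with all measured genes. The study took 1.2-fold as its threshold for genes raised in every line, which included a further colorectal cancer line from another dataset. Its methods also give thresholds on FDR and p. Here 1.2-fold was applied to log2(FPKM + 1) in HCT116 and RKO alone, without such thresholds. All 4 genes were over 1.2-fold higher in HCT116, where 12.7% of measured genes were, and 3 of 4 were in RKO, where 22.7% were. IGFBP3 passed the filter on mean FPKM only through HCT116, and mainly through the knockdown library where it is high. Its place among these 4 is therefore partly set by the filter. Without the filter all 4 were again over 1.2-fold higher in HCT116, as were 12.3% of the 7640 listed genes. None of the 4 was over 1.2-fold lower in either line, against 9.66% of genes in HCT116 and 10.9% in RKO. RUNX2, KLF2 and CDKN2B were higher in both lines, as were 3.99% of measured genes (245 of 6139), and 2.66% were lower in both. At 1.5-fold, RUNX2 and KLF2 were among 19 genes higher in both lines (0.309%), and CDKN2B was under it in HCT116. The 4 genes were picked with earlier results on these libraries known, so these counts describe them and are no independent evidence of their direction. Scaling by median of ratios changed the background counts. It also lowered the log2 changes in RKO, to 0.67 for RUNX2, 1.32 for KLF2 and 1.33 for CDKN2B. RKO then had 1137 genes higher and 1251 lower instead of 1394 and 671, and both lines shared 182 higher and 233 lower instead of 245 and 163, but the same 3 genes were among those higher in both.

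**Figure D3:**
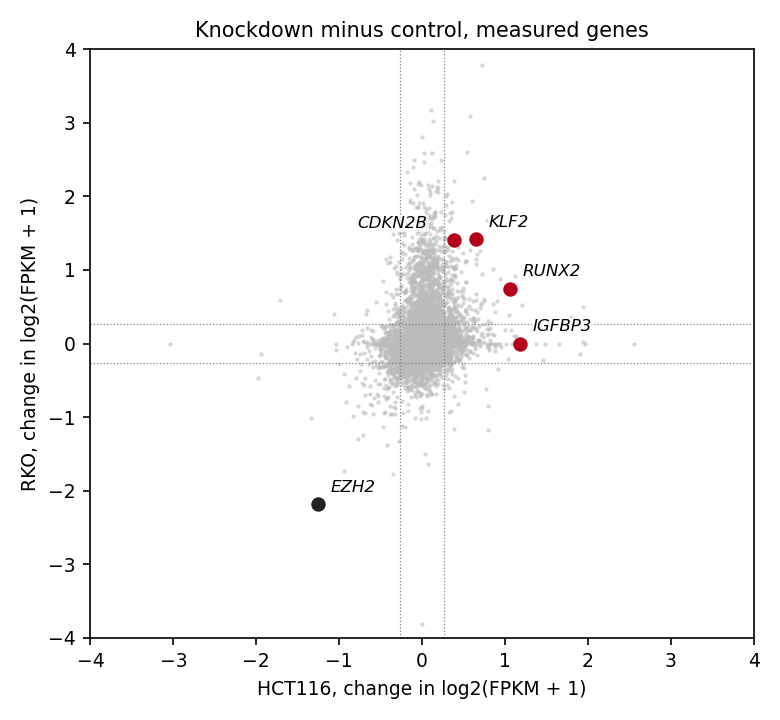
Change in log2(FPKM + 1), knockdown minus control, in HCT116 (x axis) and RKO (y axis) for the 6139 measured genes (grey points), with the 4 genes in red, EZH2 in black and dotted lines at 1.2-fold. RUNX2 (1.06 and 0.74), KLF2 (0.65 and 1.42) and CDKN2B (0.38 and 1.41) lie past 1.2-fold in both lines, and IGFBP3 lies on the horizontal axis at 1.19.

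A change common to both lines was tested with edgeR on the rounded expected counts, with the cell line in the model, which leaves 1 residual degree of freedom. The common log2 change was 1.09 for RUNX2, 1.01 for KLF2 and 1.06 for CDKN2B. By unadjusted p these 3 ranked 21, 44 and 136 among all measured genes in edgeR, and 62, 31 and 238 in DESeq2. The fitted value of 1.59 for IGFBP3 rests on 1 HCT116 library against the other, since RKO had no counts, and is no test of a common change. None passed after Benjamini-Hochberg adjustment over 6139 genes in edgeR, where the adjusted p was 0.717 for each. The adjusted p of EZH2 itself was also 0.717 in edgeR, with a common log2 change of -1.72. No gene was called (0% of those tested), while 134 higher (2.18%) and 122 lower had an unadjusted p under 0.05. Together these 256 were 4.17% of genes, a share below the p threshold itself, so a place among them is no evidence of a change. RUNX2, KLF2 and CDKN2B were among the 134, as was IGFBP3, whose value is no test of a common change. In DESeq2 87 higher and 74 lower had an unadjusted p under 0.05, and CDKN2B and IGFBP3 were not among these. With limma on log2(FPKM + 1) the changes were 0.90 ± 0.169 (SE, both lines) for RUNX2, 1.04 ± 0.225 for KLF2, 0.89 ± 0.305 for CDKN2B and 0.59 ± 0.327 for IGFBP3, with an adjusted p of 0.661 for each. DESeq2 called 5 genes higher and 4 lower. EZH2 was among the lower ones (log2 change -1.71 ± 0.438 SE, DESeq2 adjusted p = 0.0417). KLF2 was not called (log2 change 1.03 ± 0.344 SE, DESeq2 adjusted p = 0.212). DESeq2 gave no adjusted p for 4166 of the 6139 genes, and RUNX2, CDKN2B and IGFBP3 were among these.

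**Figure D4:**
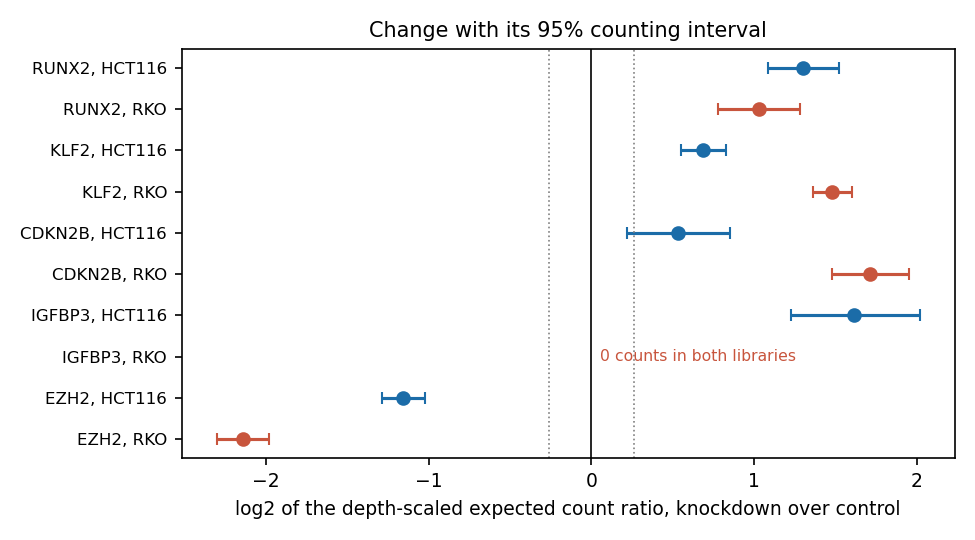
Scaled ratio of expected counts, knockdown over control, on a log2 axis, for the 4 genes and EZH2 in HCT116 (blue) and RKO (red). Points are the ratio of 1 library to 1 other, bars the exact 95% interval for counting error and dotted lines 1.2-fold. Every interval of RUNX2, KLF2, CDKN2B and IGFBP3 with counts is above 1, the lowest being CDKN2B in HCT116 (1.16 to 1.80).

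Changes in these libraries went with the GC content of the transcript, more so in RKO (Spearman correlation across genes, which are not independent, of -0.395, against -0.167 in HCT116). The 4 transcripts differ in this respect. KLF2, at 65.2% GC, belongs to the highest of 10 GC classes of equal size, of which 8.22% were over 1.2-fold higher in HCT116 and 8.55% in RKO. RUNX2 (43.3%) and CDKN2B (44.6%) belong to class 4 from the bottom, with 14.8% and 14.6%. IGFBP3 (49.5%) belongs to class 6, with 15.1% in HCT116. Subtracting the GC trend left RUNX2 at 1.02 and 0.70, KLF2 at 0.71 and 1.46, CDKN2B at 0.34 and 1.39 and IGFBP3 at 1.16 in HCT116. The number of counts per FPKM, which follows the transcript length the estimator used, changed little for RUNX2, KLF2 and CDKN2B, by a factor between 0.992 and 1.01 after scaling. For EZH2 that factor was 1.12 in HCT116 and 1.15 in RKO.

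A list of other genes described elsewhere as repressed by EZH2 was set beside the 4. Of 31 such genes 18 were listed and 13 measured, with 4 higher and 2 lower in HCT116 and 2 higher and 2 lower in RKO. Of the 18, 6 were at 0 FPKM in RKO NC and 5 in RKO shEZH2, against 1 in each HCT116 library. RUNX3, at 0 in both RKO libraries, and CDH1, at 0.10 in both, were measured only through HCT116. Such genes add changes at or near 0 to the RKO counts and median, and to the count for both lines. Their median log2 change was 0.06 in HCT116 and 0.03 in RKO, beside 0.01 and 0.01 over all measured genes. The background over all measured genes was 12.7% higher and 9.66% lower in HCT116, and 22.7% higher and 10.9% lower in RKO. Of the 13, 1 was higher in both, or 7.69%, beside 3.99% over all measured genes. That gene was HOXA10, a homeobox factor (18.02 against 24.03 FPKM in HCT116 and 9.30 against 12.85 in RKO). The 1 gene lower in both was NOV, a secreted matricellular protein, with changes of -0.52 and -0.31.

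**Figure D5:**
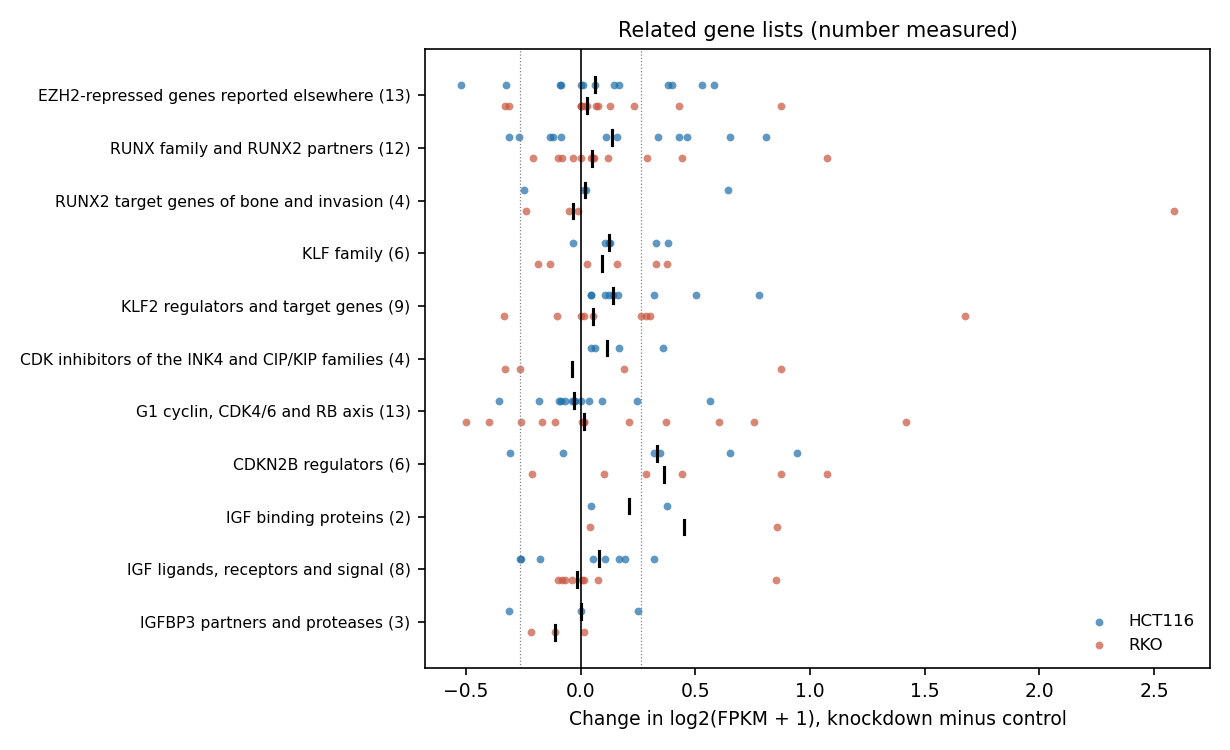
Change in log2(FPKM + 1), knockdown minus control (x axis), of every measured gene in 11 lists related to the 4 genes (y axis, number measured in brackets), in HCT116 (blue) and RKO (red). Black ticks are list medians, which lie between -0.11 and 0.45, and dotted lines mark 1.2-fold.

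The relatives of RUNX2, RUNX1 and RUNX3, were not past 1.2-fold in RKO. RUNX1 was at 7.38 and 10.57 FPKM in HCT116 and 8.06 and 7.86 in RKO, log2 changes of 0.47 and -0.03. RUNX3 was at 12.51 and 11.72 FPKM in HCT116 and listed at 0 in both RKO libraries. Of 12 measured relatives and partners of RUNX2 (of 21), 2 were over 1.2-fold higher in both lines and 0 lower in both, beside 3.99% and 2.66% of all measured genes, with medians of 0.13 and 0.05. These were SMAD3, which carries TGF-β signals (0.65 and 1.07), and WWTR1, the coactivator TAZ (0.43 and 0.29). After the GC trend was subtracted WWTR1 was at 0.12 in RKO, under 1.2-fold. MSX2, a homeobox partner, was higher in HCT116 with 16.42 against 29.50 FPKM and had -0.08 in RKO. The other partners had values of 0.33 and 0.04 for HDAC4, -0.14 and 0.12 for HDAC6, -0.12 and 0.05 for TLE1, 0.11 and -0.10 for TLE3, 0.16 and 0.06 for ETS1, and -0.31 and -0.21 for STUB1. Of 4 measured target genes of RUNX2 in bone and invasion (of 16), 0 were higher in both lines, with medians of 0.02 and -0.03. SPP1, which encodes osteopontin, was at 2.29 and 2.34 FPKM in HCT116 and at 0.03 and 5.19 in RKO. FN1, which encodes fibronectin, was at 4.08 and 6.92 FPKM in HCT116 and 0.18 and 0.14 in RKO.

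Of the 6 other Krüppel-like factors measured (of 16), KLF12 alone was over 1.2-fold higher in both lines and 0 were lower in either, beside 3.99% of all measured genes higher in both, with medians of 0.12 and 0.09. KLF12, a repressor, had changes of 0.38 and 0.33 from levels of 2.61 and 0.69 FPKM in the controls. After the GC trend was subtracted its RKO change was -0.05. KLF4, the family member that shares most roles with KLF2 in endothelium, had changes of 0.12 and -0.19, and KLF5, a factor of the gut epithelium, had 0.13 and 0.37. KLF3 had 0.11 and 0.16, KLF7 0.33 and 0.03, and KLF15 -0.03 and -0.13. Of 9 measured regulators and targets of KLF2 (of 20), 2 were higher in both and 0 lower in both, with medians of 0.14 and 0.06. FOXO3, a forkhead factor, had 0.32 and 0.28. CAV1, the coat protein of caveolae, had 0.78 and 1.68, with levels of 165.89 and 285.33 FPKM in HCT116 but 3.74 and 14.16 in RKO.

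No other measured inhibitor of cyclin-dependent kinases was over 1.2-fold higher in both lines as CDKN2B was (0 of 4 measured, of 7, beside 3.99% of all measured genes, medians 0.11 and -0.04). Only 4 of the 7 were in the table, so the change of the remaining ones is unknown. CDKN2A, the neighbour that encodes p16 and ARF, was at 57.91 and 65.03 FPKM in HCT116 and at 1.14 and 0.70 in RKO. CDKN1A, which encodes p21, was at 71.20 and 74.29 FPKM in HCT116 and at 73.54 and 135.68 in RKO. CDKN2C, which encodes p18, was at 5.52 and 7.36 FPKM in HCT116 and at 4.61 and 3.67 in RKO, and CDKN3, a phosphatase of CDK2, had changes of 0.05 and 0.19. In the axis of G1 cyclins, CDK4, CDK6 and RB on which p15 acts, 13 of 20 genes were measured, with 1 higher and 0 lower in both and medians of -0.03 and 0.01. CDK6, a kinase that p15 inhibits, was the one higher in both (0.56 and 0.60, with 0.31 in RKO after the GC trend was subtracted). CCNE2, cyclin E2, had -0.04 and 1.42, with 0.79 in RKO after the GC trend was subtracted. Of 6 measured regulators of CDKN2B (of 16), 4 were higher in both and 0 lower in both, beside 3.99% and 2.66% of all measured genes, with medians of 0.33 and 0.36. These were SMAD3 and FOXO3, which activate CDKN2B after TGF-β, and BMI1 and ID1, which are known as repressors of genes at the INK4 locus. BMI1, a subunit of Polycomb repressive complex 1, was at 10.84 and 21.74 FPKM in HCT116 and 19.20 and 36.00 in RKO. ID1 was at 346.97 and 440.70 FPKM in HCT116 and 9.67 and 13.47 in RKO.

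Of the other IGF binding proteins, 2 of 7 were measured and 1 was higher in both lines, beside 3.99% of all measured genes, with medians of 0.21 and 0.45. IGFBP6, which prefers IGF2, was at 36.95 and 48.20 FPKM in HCT116 and at 37.96 and 69.44 in RKO, and so was present in RKO where IGFBP3 was not detected. IGFBP2 was at 114.68 and 118.29 FPKM in HCT116 and 39.67 and 40.88 in RKO. Of 8 measured IGF ligands, receptors and signal proteins (of 19), 1 was higher and 0 lower in both, with medians of 0.08 and -0.02. PIK3CA, the catalytic subunit of PI3-kinase, had 0.32 and 0.85, and -0.05 in RKO after the GC trend was subtracted. Of 3 measured partners and proteases of IGFBP3 (of 14), 0 were higher or lower in both, with medians of 0.00 and -0.11. STC2, a secreted glycoprotein, was at 8.95 and 7.02 FPKM in HCT116 and at 0 and 0.01 in RKO, and CTSD, a lysosomal protease, had changes of 0.00 and -0.11.

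The 4 genes fell into different profiles over the 4 libraries. Likeness was measured as the distance between log2(FPKM + 1) profiles after each was centred on its mean, where 0 is the same profile. KLF2 and CDKN2B were nearest each other (0.39), RUNX2 was at 1.02 from KLF2, and CDKN2B and IGFBP3 were farthest apart (2.93). The gene most like RUNX2 was TFPI, an inhibitor of coagulation (0.28), with 8.73 and 16.56 FPKM in HCT116 and 6.25 and 13.58 in RKO. The next were the readthrough gene ERV3-1-ZNF117 (0.33) and RGPD8 (0.43), a member of a near-identical family, and both are uncertain. Nearest to KLF2 were FSD1L (0.23), SLCO1B3, a transporter of organic anions (0.26), and BIRC3, an inhibitor of apoptosis (0.35). Nearest to CDKN2B were NEDD4L, a ubiquitin ligase (0.20), FAS, a death receptor (0.27), and CLCF1, a cytokine (0.28). Nearest to IGFBP3 were MAML2, a coactivator of Notch (0.086), CPA4, a carboxypeptidase (0.19), and ZFP36L2, an mRNA decay factor (0.23). MAML2 was at 2.03 and 5.70 FPKM in HCT116 and at 0.21 and 0.17 in RKO. These genes were picked for their profile, so their values are a description. The median distance to all measured genes was between 1.27 for RUNX2 and 2.04 for IGFBP3.

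The neighbours of the 4 genes on their chromosomes were mostly outside the table. Of the 40 RefSeq genes counted as the 5 nearest on each side, 5 were in the table and 4 measured. Of these 4, 0 were over 1.2-fold higher in either line, beside 12.7% of measured genes in HCT116 and 22.7% in RKO. In HCT116 0 were lower and in RKO 1 was, beside 9.66% and 10.9%. So few genes cannot be told apart from those shares. Near KLF2, HSH2D had changes of -0.06 and 0.05, AP1M1 of 0.09 and -0.09, and CHERP of -0.14 and 0.06. Near CDKN2B, CDKN2A had 0.16 and -0.33. CLIC5, near RUNX2, was not measured, at 0.23 FPKM in both HCT116 libraries and 0 in both RKO libraries.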

How the data were processed

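Human HCT116 and RKO colorectal cancer cells with a control or an EZH2 shRNA gave 4 libraries, grouped by their titles. The authors mapped reads with Bowtie and quantified genes with RSEM. Bowtie2, BWA, hg19 and GRCh37 appear in the submitters' notes on processing, whereas the methods name a mouse build, so the build was not settled and versions are not given in the sources used here. Per gene and library the authors deposited an FPKM value and an expected count (estimated counts, which RSEM shares between similar genes). The 2 deposited log2 ratio columns hold the authors' own comparison in each line and were not used. For 13 genes the symbol had become a date and was restored through the gene ID.

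The 4 genes and the gene lists were chosen with earlier results of these data known. Changes within a line are differences of log2(FPKM + 1), a scale that understates the change of low genes, for genes with a mean of at least 1 FPKM. They have no test, because each group has 1 library. Count ratios were scaled by relative mapped depth and given exact (Clopper-Pearson) 95% intervals. This depth was the median over genes of the ratio of counts per FPKM between the libraries, and differs from median-of-ratios scaling. The common change was tested with edgeR 4.0.16 (quasi-likelihood, TMM, cell line as covariate, two-sided) on expected counts rounded to whole numbers, with DESeq2 1.42.0, limma 3.58.1, other scaling, pseudocounts, thresholds and filters as alternatives. With the cell line in the model, the 1 residual degree of freedom is the difference between HCT116 and RKO in the knockdown change. The p-values therefore set the common change against disagreement between the lines mixed with library noise. The labels describe no replicate cultures within a line, so these parts cannot be separated. Depth was 17003147 to 18991801 fragments per library, estimated from counts per FPKM and transcript length.

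Genes named were the 4 genes and EZH2. From each list they were the members over 1.2-fold in the same direction in both lines (at most 4 per direction), made up to 2 by the largest mean change, with all measured members of the RUNX, KLF, CDK inhibitor and IGFBP lists. For each of the 4 genes they were also the 3 genes most alike and the listed genes among the 5 nearest on each side. A gene that the rule takes is not reported here. Transcript GC came from the longest GENCODE release 29 transcript and had a value for 99.1% of measured genes, with its trend fitted by lowess (span 0.3). Promoter windows, GC and neighbours are from references on GRCh38, another build than the notes name, and no coordinates of the data are given.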

Additional observations from a re-analysis of the deposited data

Results flagged for a closer look

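The CDK inhibitor CDKN2C was over 1.2-fold higher in HCT116 (log2 change 0.36) and over 1.2-fold lower in RKO (-0.265, with 1.2-fold at 0.263). The RUNX2 partner CEBPB went the other way, at -0.27 in HCT116 and 0.44 in RKO. They were the 2 of 57 named measured genes whose single libraries moved in opposite directions past 1.2-fold, and that opposite movement was not tested. Many named genes were picked for moving the same way in both lines, so this count follows partly from that rule. The share of such genes over all measured genes was not counted. After the GC trend was subtracted, CDKN2C was at -0.22 in RKO and CEBPB at -0.20 in HCT116, both under 1.2-fold.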

How the results depend on the processing

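No change of the 4 genes turned direction or crossed 1.2-fold under another pseudocount, scaling or GC setting, and none of the edgeR, limma or DESeq2 alternatives called any of the 4. With a pseudocount of 0.1, RUNX2 was at 1.28 in HCT116 and CDKN2B at 1.68 in RKO. With 0.01, RUNX2 was at 1.31 in HCT116 and 1.01 in RKO, CDKN2B at 1.71 in RKO and IGFBP3 at 1.61 in HCT116. On TMM-scaled counts RUNX2 was at 1.28 and IGFBP3 at 1.59 in HCT116. Scaled by mapped depth, their log2 count ratios were close to these, at 1.30 and 1.62. In RKO, TMM lowered the log2 count ratio from 1.03 to 0.89 for RUNX2 and from 1.48 to 1.34 for KLF2. For CDKN2B it went from 1.71 to 1.57. The KLF2 value then lay below its counting interval, which starts at 1.36 in log2. At 1.5-fold the genes higher and lower were 127 and 68 in HCT116, 737 and 101 in RKO, and 19 and 15 in both lines. With a mean of at least 5 FPKM, which KLF2 alone of the 4 reaches, 405 genes were higher in HCT116 and 151 in both lines. Median-of-ratios scaling gave 1251 lower genes in RKO. DESeq2 called 5 genes higher and 4 lower where edgeR called 0. With an unadjusted p under 0.05 there were 256 genes in edgeR, 161 in DESeq2 and 311 in limma. The main edgeR model compares control and knockdown within each line. Without the cell line term edgeR again called 0 genes, with 2 at an unadjusted p under 0.05 in place of 256. With 1 library per group no replicate could be left out. Depth limits CDKN2B in HCT116 and the absence of IGFBP3 counts in RKO, which allows up to 3 counts per library.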
